A study of Mus musculus with 11 samples.

Results

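The 11 liver libraries of this series were divided by their level of Afp, the gene of alpha-fetoprotein, into 6 Afp-high and 5 Afp-low libraries. Members were chosen by the measured Afp value alone: its read count, divided by the library's gene reads and scaled to counts per 1000000 (CPM), put a library on the Afp-high side at 20 CPM or more. Every library came from liver of an FVB/NJ mouse with hepatocellular carcinoma (HCC) brought about by expressing MET and β-catenin, and every treatment label names anti-PD-1, an antibody against an inhibitory receptor of T cells. The Afp-high side held all 4 libraries labelled non-responder and responders 4 and 6, and the Afp-low side held responders 1, 2, 3 and 5 and 1 library with the response label for no treatment. Since its own treatment label names the antibody all the same, it is called the no-treatment library after the response label alone. Ages, sexes and the way MET and β-catenin were delivered are not in the labels. Nothing in them says that the libraries came from separate mice, so p-values here reflect the spread from library to library. The sides were set by a value measured in the libraries themselves and are neither a treatment nor a group of the study. Response label and side overlapped in large part, since no non-responder was Afp-low.

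Alpha-fetoprotein is made in quantity by the fetal liver and yolk sac, is shut off in hepatocytes after birth, and returns in many liver tumours, which is why it serves as a blood marker of HCC. MET is the receptor of hepatocyte growth factor and signals through ERK among other routes. β-catenin carries the Wnt signal to the nucleus, where in the healthy liver it maintains the genes of hepatocytes near the central vein, while genes of urea synthesis and gluconeogenesis mark hepatocytes near the portal vein.

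Afp chose the sides, so its values are given as a description. In responders 1, 2, 3 and 5 it stood at 1.62, 1.34, 2.38 and 2.11 CPM, and in the no-treatment library at 1.66 CPM. Among the Afp-high libraries it stood at 99.1 CPM in responder 6, at 127 CPM in responder 4 and at 123, 287, 193 and 388 CPM in non-responders 1 to 4. The nearest values on either side of the threshold were 2.38 and 99.1 CPM, and no library lay between them. The 250 bases before the RefSeq start of Afp (GRCm38.p6, chr5:90490464-90490713, plus strand) are shown because the gene defines the comparison. Capitals mark GTTAAC, letters that resemble part of the longer binding site of HNF1, a hepatocyte transcription factor known to act on this promoter. Other forms of that site were not searched for.
Afp: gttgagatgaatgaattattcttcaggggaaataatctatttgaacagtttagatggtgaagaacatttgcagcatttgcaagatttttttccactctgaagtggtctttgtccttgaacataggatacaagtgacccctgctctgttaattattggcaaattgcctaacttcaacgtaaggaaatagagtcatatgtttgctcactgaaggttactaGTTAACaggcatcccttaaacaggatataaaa
The same letters, searched on both strands, were in 2.61% of the 27025 promoters of this length in the table, in 2.30% of the 11093 of genes tested, in 1.49% of the 1010 of genes called higher on the Afp-high side and in 3.05% of the 591 of genes called lower. A match in these letters is a description of the sequence.

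Depth ran from 17876515 to 49884800 gene reads per library and did not differ beyond its spread between the sides (two-sided exact permutation test over 6 and 5 libraries, p = 0.552, adjusted p = 0.662 over 6 measures). The number of genes with 10 or more reads did not either (exact permutation p = 0.703, adjusted p = 0.703). Reads of non-responder 1 lay toward the 3′ ends of transcripts. Its 3′ index, the median log2 read density of later over earlier exons, was 1.13, against -0.12 to 0.09 in the other 10 libraries, so counts are also given without it. Hepatocyte markers (Alb, Ttr, Apoa1, Hnf4a) were the highest of the marker sums in every library, at 65368 to 125700 CPM on the Afp-high side and 58971 to 70949 CPM on the other. Of the markers of other cell types and organs, none was at 0 in all libraries. Pancreas markers (Cela1, Cpa1, Prss2) summed to 31.4 to 64.6 CPM on the Afp-high side and 28.1 to 46.8 CPM on the other. Vil1, a gut marker, ran from 0.250 to 6.19 CPM against 0.0992 to 0.361 CPM, and Tff2, of the gall bladder, from 0 to 0.200 CPM against 0.0376 to 0.262 CPM. Whether other tissue was carried along was not tested. Y-linked Ddx3y stood between 22.6 and 75.2 CPM and Xist between 0.555 and 2.46 CPM over all 11 libraries. Title numbers, whose meaning the labels do not give, ran from 13 to 37 on the Afp-high side and from 1 to 16 on the other.

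The sides differed across much of the transcriptome. Of 17383 genes tested other than Afp, 1500 (8.63%) were higher and 853 (4.91%) lower on the Afp-high side, by edgeR's quasi-likelihood test at an adjusted p under 0.05, together 13.5%. The increases were the larger: 207 of the genes called higher exceeded a log2 fold change of 3, and no gene called lower passed -3. The median called increase was 1.25 and the median called decrease -0.74 on the log2 scale, against 0.01 over all genes tested. The sides did not overlap for 2274 genes (13.1%), 1185 of them higher (6.82%) and 1089 lower (6.26%). Without non-responder 1 the calls came to 1674 higher and 1233 lower. With the 3′ index as a covariate they came to 1484 and 907, and 11 of the 124 called genes that were named by rule no longer passed. With the response label in the model, so that only responders 4 and 6 are set against responders 1, 2, 3 and 5, 186 genes (1.07%) were higher and 7 (0.0403%) lower. With the title number as a covariate 60 and 1 remained past the threshold. Side, label and title number can therefore be told apart only in part.

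The first principal component of the 17383 genes, with Afp left out, carried 51.7% of the variance. The 5 Afp-low libraries lay between -61.7 and -35.8 on it, responders 4 and 6 at 6.84 and 9.63, and the non-responders between 29.4 and 98.6. Responders 4 and 6 thus lay between the other libraries of their own label and the non-responders, and each was the other's nearest library by rank correlation over genes. On average both correlated slightly more with the Afp-low side. The means for responder 4 were 0.9701 with the other Afp-high and 0.9731 with the Afp-low libraries, and for responder 6 they were 0.973 and 0.9755. The second component, with 14.9%, had non-responder 1 at 69.4 and the rest between -36.1 and 19.8.

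**Figure D1:**
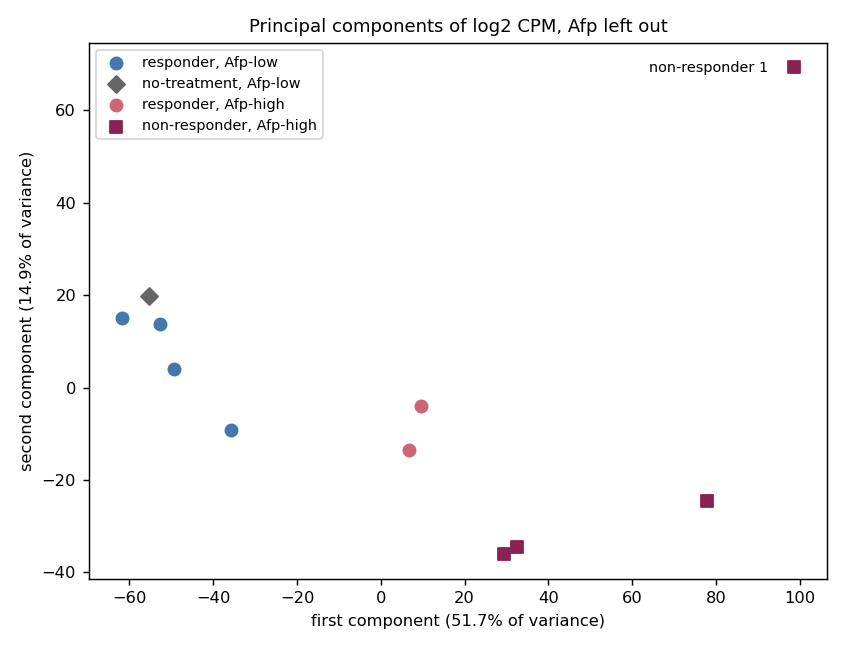
First against second principal component of log2 CPM (unitless scores) for the 11 libraries, coloured by Afp side and response label. Afp-low libraries sit at -61.7 to -35.8 on the first axis, responders 4 and 6 at 6.84 and 9.63, and non-responder 1 stands apart at 69.4 on the second.

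The 12 largest called increases included Gpc3 and H19, known from the fetal liver and liver tumours, and each of the 12 was under 1 CPM in every Afp-low library. Non-overlapping sides were a condition for naming these genes, so that is no finding about them. Most also had too few Afp-low reads to pass the filter on read counts without the Afp-high libraries. Their fold changes and p-values therefore describe the gap and are no separate support. Gpc3 (chrX:52272426-52613950), a glypican of the cell surface and an oncofetal marker of HCC, stood at 0.564, 0.236, 0.427 and 0.486 CPM, scaled from here on by edgeR's TMM method, in responders 1, 2, 3 and 5 and at 0.919 in the no-treatment library. On the Afp-high side its lowest, median and highest values were 86.2, 136 and 495 CPM. The lowest Afp-high library thus lay above every Afp-low library by a wide margin, and the log2 fold change was 8.48 ± 0.62 (SE, adjusted p = 1.13e-05).

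Among the others, Cdh17, liver-intestine cadherin, averaged 69.0 ± 66.8 CPM over the 6 Afp-high libraries (SD) and 0.188 ± 0.047 CPM over the 5 Afp-low (SD). Its log2 fold change was 8.54 ± 0.91. Kif5c, a kinesin heavy chain best known from neurons, averaged 49.8 ± 40.6 against 0.107 ± 0.098 CPM, and Ly6d, a surface protein of the Ly6 family, 194 ± 173 against 0.623 ± 0.135 CPM. H19, an imprinted long noncoding RNA of the fetal liver, ranged from 2.78 to 75.4 CPM on the Afp-high side and from 0 to 0.236 CPM on the other. The sulfotransferase genes Sult3a1 and Sult1e1 had log2 fold changes of 8.98 and 8.38. Stc1, a secreted glycoprotein hormone, Cacna1b, a neuronal calcium channel subunit, and Miox, which starts the breakdown of inositol, came to 8.18, 8.04 and 7.87. The spread within the Afp-high side was wide for most of these genes, with the 2 responders often below the non-responders. For Gldn, gliomedin, the Afp-low side held 1 read in all against 1913, a depth-scaled ratio of 1763 (95% interval 316 to 69690, exact binomial, counting error only).

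Decreases were smaller. Igfbp2, a secreted binding protein of insulin-like growth factors, stood at 624, 235, 220 and 240 CPM in responders 1, 2, 3 and 5 and at 192 CPM in the no-treatment library, against a lowest, median and highest of 29.3, 63.4 and 116 CPM on the Afp-high side. Every Afp-low library lay above every Afp-high library, and the log2 fold change was -2.13 ± 0.42 (adjusted p = 0.00649). Cyp8b1, the sterol 12α-hydroxylase that shapes the bile acid pool, averaged 87.7 ± 39.998 against 290 ± 106 CPM (log2 fold change -1.73 ± 0.41, adjusted p = 0.0175). Ces1g, a carboxylesterase, Bmf, a pro-apoptotic BH3-only protein, Smad9, a mediator of BMP signalling, and Chrm3, a muscarinic receptor, fell by 1.71, 1.72, 1.68 and 1.89 on the log2 scale. So did Hamp2, a hepcidin gene, by 1.98 (adjusted p = 0.038), and the related Hamp missed the threshold with -1.77 ± 0.63 (adjusted p = 0.0843), at 27.7 to 472 CPM against 590 to 808 CPM. Raet1e and Raet1d, ligands of the natural killer receptor NKG2D, had log2 fold changes of -2.25 and -2.08, share 16.8% and 25.2% of their exon bases with each other and are uncertain as single genes. The leucine-rich repeat genes Lrtm1, Lrit2 and Lrit1 completed the 12. Leaving out single libraries ended the call of Hamp2 in 8 of 11 fits, of Lrit1 in 7, and of Raet1d and Chrm3 in 1 each, without responder 1 and without responder 5.

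**Figure D2:**
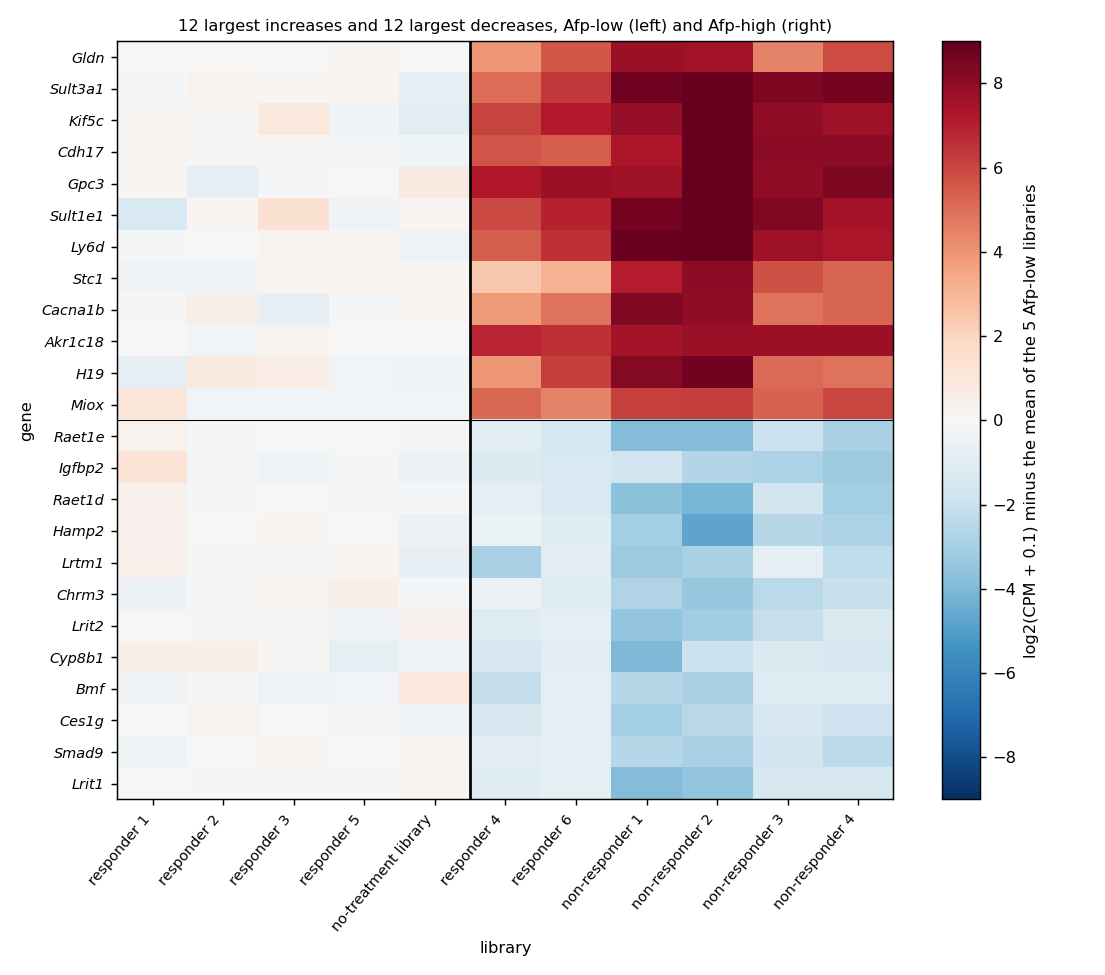
Heat map of the 12 largest called increases and 12 largest called decreases (rows) in each library (columns), as log2(CPM + 0.1) minus the mean of the 5 Afp-low libraries. The upper rows darken in all 6 Afp-high libraries, and the lower rows change less, with log2 fold changes between -2.25 and -1.68.

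Genes of the fetal liver and of liver carcinoma had the highest median of the 40 lists described. Of 23 such genes tested, 17 rose and 6 did not pass, with a median log2 fold change of 3.20. Afp, which set the sides, is itself a gene of this kind, and the lists were chosen with earlier results known. The rank of this list is therefore a description. For every list, the counts called stand beside 8.63% higher and 4.91% lower over all genes tested. Akr1c18 (chr13:4132615-4150654), a 20α-hydroxysteroid dehydrogenase, stood at 0.161, 0.135, 0.237 and 0.162 CPM in responders 1, 2, 3 and 5, at 0.184 CPM in the no-treatment library and at a lowest, median and highest of 25.8, 53.7 and 60.3 CPM on the Afp-high side. Its spread within each side was narrow, and its log2 fold change of 8.01 ± 0.32 had the smallest adjusted p of the named genes (5.46e-08). With so few Afp-low reads it passed the filter on read counts through the Afp-high libraries alone, so that p-value is a description. Prom1, the membrane glycoprotein CD133 of progenitor cells, averaged 60.1 ± 24.9 against 0.552 ± 0.179 CPM. Cd34, a sialomucin of progenitor and endothelial cells, averaged 9.28 ± 2.32 against 4.29 ± 0.56 CPM. Igf2, the fetal growth factor next to H19, passed at a log2 fold change of 3.20 ± 0.92 (adjusted p = 0.0385), but its sides were close: 0.803 to 16.5 CPM against 0.121 to 0.735 CPM, and 6 of 11 fits without a library ended its call. Without non-responder 1 the list again had 17 genes called higher, and the range over all such fits was 15 to 18. Epcam and Krt19, which mark cholangiocytes and liver progenitors, averaged 0.681 and 0.684 CPM on the Afp-high side and 0.480 and 0.654 CPM on the other, and neither passed (adjusted p = 0.364 and 0.926).

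The 10 genes whose log2 CPM followed that of Afp most closely over the 11 libraries, by Pearson correlation, were Akr1c18, Prom1, Sh3bp4, Dcbld2, Gpc3, Mep1b, Gm13657, Ipcef1, Nxpe2 and Hao2. The libraries form 2 clusters in Afp, so the correlation mostly ranks the gap between sides and is not given as a value. Hao2, a peroxisomal hydroxyacid oxidase, rose from 0.141 ± 0.051 to 12.2 ± 5.67 CPM. Mep1b, a meprin metalloprotease subunit, rose from 0.091 ± 0.065 to 9.25 ± 3.19 CPM. Sh3bp4, an endocytic adaptor, rose from 0.851 ± 0.233 to 17.4 ± 5.16 CPM. Dcbld2 shares 19.1% of its exon bases with St3gal6 and is uncertain.

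Targets of β-catenin were higher on the Afp-high side as a majority of their list. Of 26 β-catenin target and perivenous genes tested, 14 rose, 1 fell and 11 did not pass, with a median log2 fold change of 1.18. Rnf43 (chr11:87662722-87735539), a ubiquitin ligase that removes Wnt receptors as feedback, stood at 27.7, 31.7, 31.1 and 28.7 CPM in responders 1, 2, 3 and 5, at 22.7 CPM in the no-treatment library and at a lowest, median and highest of 75.9, 89.7 and 110 CPM on the Afp-high side. Every Afp-high library exceeded every Afp-low library by more than the spread within either side, with a log2 fold change of 1.69 ± 0.12 (adjusted p = 7.11e-06). Lect2, a hepatokine and classical β-catenin target, averaged 344 ± 127 against 64.9 ± 6.22 CPM, and Slc1a4, a neutral amino acid transporter, 48.9 ± 27.8 against 5.45 ± 1.08 CPM. Axin2, the scaffold of the β-catenin destruction complex and a general Wnt feedback gene, rose by 1.52 ± 0.27 and Lgr5, an R-spondin receptor, by 1.49 ± 0.31 on the log2 scale.

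Glul, the perivenous glutamine synthetase, missed the threshold (1.19 ± 0.38, adjusted p = 0.0561). It stood at 1012 and 450 CPM in responders 4 and 6 and at 535, 311, 1115 and 1669 CPM in non-responders 1 to 4, against 285 to 496 CPM on the Afp-low side. Responder 6 and non-responder 2 lay within the Afp-low range. Cyp2e1, also perivenous, averaged 5582 ± 2393 against 6601 ± 291 CPM (adjusted p = 0.625), with non-responders 1 and 2 at 2683 and 2417 CPM and the other 4 Afp-high libraries between 6468 and 7789 CPM. The 250 bases before Axin2 (GRCm38.p6, chr11:108920099-108920348, plus strand) are shown as those of a feedback gene that moved with Afp, with GTTAAC in capitals.
Axin2: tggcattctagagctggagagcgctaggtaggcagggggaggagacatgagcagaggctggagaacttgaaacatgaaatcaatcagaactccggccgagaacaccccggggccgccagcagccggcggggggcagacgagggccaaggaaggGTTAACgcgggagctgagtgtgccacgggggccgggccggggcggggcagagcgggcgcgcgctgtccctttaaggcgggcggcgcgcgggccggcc
The letters CTTTGAT, the core of the site of TCF factors through which β-catenin acts, were in neither of these windows nor in those of Gpc3, Akr1c18 and Prom1, searched on both strands. They were in 3.18% of all promoters, in 2.29% of those of genes tested, in 2.67% of those of genes called higher and in 2.54% of those of genes called lower.

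Feedback genes of MET and ERK signalling rose in 10 of 20 tested members, with 1 lower and a median of 1.003. Dusp6, the phosphatase that inactivates ERK and is induced by it, stood at 14.7, 19.8, 24.1 and 24.1 CPM in responders 1, 2, 3 and 5, at 50.1 CPM in the no-treatment library and at 103, 120 and 163 CPM at the lowest, median and highest on the Afp-high side. The no-treatment library was the highest of the Afp-low libraries and still under every Afp-high library. The log2 fold change was 2.25 ± 0.28 (adjusted p = 0.000311). Dusp5, a nuclear ERK phosphatase, averaged 17.3 ± 12.03 against 1.27 ± 0.48 CPM, and Spred1, an inhibitor of the pathway, 32.2 ± 5.52 against 16.9 ± 2.31 CPM.

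The induced genes themselves differed in total reads less than in the spread of reads over their exons. Ctnnb1, which encodes β-catenin, averaged 463 ± 121 against 309 ± 6.15 CPM (log2 fold change 0.58 ± 0.16, adjusted p = 0.0351), and its call ended in 7 of 11 fits without a library. Met averaged 91.6 ± 25.9 against 103 ± 4.86 CPM (adjusted p = 0.611). The share of reads on exon 12 of the 15 of Ctnnb1 (chr9:120957517-120957667, mm10) and on exon 17 of the 22 of Met (chr6:17555547-17555627) was examined because an earlier analysis of these libraries had singled out these exons, so they are no independent choice. Ctnnb1 exon 12 took 5.004%, 4.76%, 4.55% and 4.88% of the gene's exon reads in responders 1, 2, 3 and 5 and 5.03% in the no-treatment library. It took 8.42% and 8.84% in responders 4 and 6 and 16.5%, 13.4%, 9.45% and 8.62% in non-responders 1 to 4. As log2 read density relative to the other exons it averaged 1.44 ± 0.46 (SD, n = 6) against 0.23 ± 0.06 (SD, n = 5), without overlap (two-sided exact permutation p = 0.00216, the smallest this design allows, adjusted p = 0.00433).

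Met exon 17 behaved alike, with 1.67% to 2.18% of exon reads on the Afp-low side, 3.64% and 4.53% in responders 4 and 6 and 8.12%, 7.75%, 3.97% and 4.53% in non-responders 1 to 4. Its relative density averaged 2.18 ± 0.53 against 0.69 ± 0.17 (exact permutation p = 0.00216, adjusted p = 0.00433), on 61 to 395 reads per library. Of the other exons, Ctnnb1 exon 9 and Met exons 15, 16 and 19 also took a larger share in every Afp-high than in every Afp-low library. Ctnnb1 exons 3 to 8 took a smaller share in every Afp-high library, at 0.67 to 0.82 times the Afp-low mean. Shares of exons in between, such as Ctnnb1 exons 10 and 11 (1.06 and 1.15 times) and Met exon 18 (0.89 times), overlapped between the sides.

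**Figure D3:**
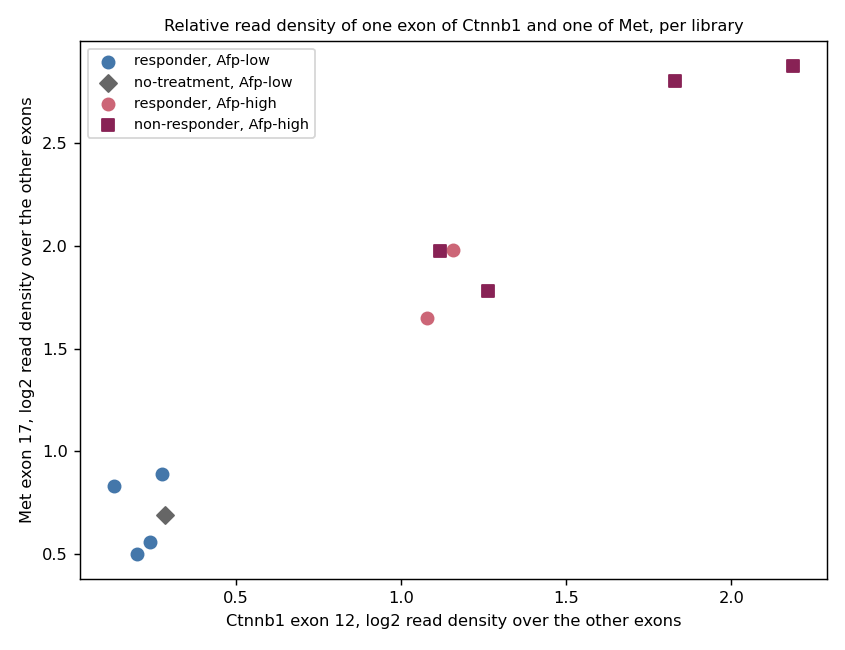
Log2 read density of Met exon 17 (vertical) against that of Ctnnb1 exon 12 (horizontal), each relative to the gene's other exons, for the 11 libraries. Afp-low libraries lie at 0.13 to 0.29 on the horizontal axis and Afp-high libraries at 1.08 to 2.19, without overlap on either axis.

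Mitosis genes were higher on the Afp-high side, but responder 3 stood apart among the Afp-low libraries. Of 26 tested, 15 rose and 11 did not pass, with a median of 1.48. Mki67, the proliferation antigen, stood at 33.7 CPM in responder 3 and at 1.84 to 4.75 CPM in the other 4 Afp-low libraries, against 17.1 to 39.0 CPM on the Afp-high side (adjusted p = 0.148). Responder 3 thus lay within the Afp-high range. Top2a, a DNA topoisomerase of dividing cells, had 24.1 CPM in responder 3, 0.919 to 3.71 CPM in the other Afp-low libraries and 8.32 to 23.3 CPM on the Afp-high side (adjusted p = 0.285). Without responder 3, all 26 mitosis genes passed and the median was 2.36. Leaving out any other library gave 10 to 15. Cdca3, a mitotic entry factor, averaged 7.20 ± 1.72 against 2.22 ± 0.42 CPM, and the kinase Aurka and the cyclin Ccnb2 had log2 fold changes of 1.49 ± 0.30 and 2.48 ± 0.52. DNA replication genes rose in 9 of 26 with a median of 0.56, among them Mcm2, a subunit of the replicative helicase, and Ccne1, cyclin E1. That count was 14 without responder 3 and 3 to 9 without any other single library, with 3 when responder 1, responder 2 or the no-treatment library was left out.

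Periportal genes fell. Of 18 tested, 16 passed as lower and 2 did not pass, with a median log2 fold change of -1.25. Ass1 (chr2:31470207-31520672), argininosuccinate synthase of the urea cycle, stood at 1030, 793, 590 and 616 CPM in responders 1, 2, 3 and 5, at 612 CPM in the no-treatment library and at a lowest, median and highest of 182, 225 and 352 CPM on the Afp-high side. The sides did not overlap, and the log2 fold change was -1.61 ± 0.20 (adjusted p = 0.000399). Cps1, the first enzyme of the urea cycle, averaged 1269 ± 633 against 3920.5 ± 201 CPM, with non-responder 1 lowest at 341 CPM. Tat, tyrosine aminotransferase, averaged 571 ± 204 against 1532 ± 426 CPM, and Hsd17b13, a lipid droplet enzyme, 73.0 ± 9.96 against 123 ± 5.15 CPM. In these bulk libraries fewer cells of a type and less RNA per cell cannot be told apart. Without a single library the count lay between 11 and 17, lowest without the no-treatment library. Alb, which the list also holds, was not lower: it averaged 76839 ± 15243 against 54126 ± 5603 CPM (adjusted p = 0.0952).

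Hepatocyte transcription factors showed no such shift, with 1 of 20 higher, 1 lower and a median of -0.12. Hnf4a, a master regulator of hepatocyte genes, averaged 660 ± 44.1 against 633 ± 36.2 CPM (log2 fold change 0.06 ± 0.11, adjusted p = 0.737). Onecut2 was the lower gene (-0.87 ± 0.13) and Foxa3 the higher (0.54 ± 0.13), whose call ended without responder 5 (adjusted p = 0.0501). Of 34 cytochrome P450 genes of drug metabolism 6 rose and 8 fell, and of 19 bile acid and organic anion transporters 4 rose and 5 fell. The lower P450 count was 4 without responder 2, responder 5 or non-responder 4 and 5 without responder 1. The lower transporter count was 1 without responder 2, 2 without responder 1 or 5, and 3 without non-responder 4 or the no-treatment library. Without the last library the higher counts were 3 and 2. Slc10a1, the sodium-dependent bile acid importer, averaged 251 ± 86.4 against 495 ± 51.5 CPM. Abcg5, a sterol exporter, averaged 146 ± 37.2 against 90.9 ± 5.05 CPM and Abcb1a, a drug exporter, 6.65 ± 2.76 against 2.31 ± 0.62 CPM.

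Liver genes that differ between the sexes did not move as 1 block. Of 21 female-biased genes tested, 13 rose and 2 fell, with a median of 2.11. Cyp2b13, a P450 that is normally scarce in male liver, stood at 0.121, 0.236, 0.285 and 0.674 CPM in responders 1, 2, 3 and 5, at 0.0612 CPM in the no-treatment library and at 13.2, 19.1 and 41.2 CPM at the lowest, median and highest on the Afp-high side. The sides lay far apart (log2 fold change 6.31 ± 0.50, adjusted p = 1.74e-05). Hao2, Prom1 and Sult3a1, given above, are in this list too. Cyp3a44, likewise female-biased, was lower (-0.84 ± 0.14). Of 23 male-biased genes 1 was called, Serpina12, an adipokine, at -1.66 ± 0.48 (adjusted p = 0.0399), and 8 of 11 fits without a library ended that call. Their median was -0.81. Genes of these P450 and sulfotransferase families have near-identical relatives, among which reads may have been divided.

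Medians of the secreted and metabolic gene lists lay between -0.32 and 0.29. Complement and coagulation genes had 4 of 35 called lower and a median of -0.32, and 12 of the 35 were lower in every Afp-high library, against 6.26% of all genes. Serpinc1, antithrombin, averaged 1421 ± 117 against 1939.5 ± 87.5 CPM, and Hrg, histidine-rich glycoprotein, 513 ± 43.8 against 661 ± 31.5 CPM. Without non-responder 1 that count was 8, and without any other library it was 1 to 4. Acute phase genes had 1 of 24 higher, Il1rn, an inhibitor of interleukin-1, and 1 lower, Orm1, a serum glycoprotein. Glycolysis genes had Ldha higher (0.54 ± 0.15) and Pdk1, a brake on pyruvate oxidation, lower (-1.06 ± 0.16) among 24 tested. Leaving out a library ended the call of Ldha in 9 of 11 fits.

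In fatty acid oxidation 4 of 27 genes rose and 2 fell, against 8.63% and 4.91% over all genes. The lower count was 4 without non-responder 1, 2 without responder 3, 4 or 6, and 1 in the other fits without a library. In this list Vnn1, a pantetheinase, went from 2.23 ± 1.22 to 23.9 ± 6.44 CPM. Fgf21, a starvation hormone of the liver, averaged 19.1 ± 19.2 against 2.25 ± 0.45 CPM, with non-responders 1 and 2 at 30.4 and 53.4 CPM and the other Afp-high libraries between 4.34 and 10.1 CPM. Of 20 fatty acid synthesis genes 4 fell, among them Acss2 and Acly, which supply acetyl-CoA, at -1.27 ± 0.16 and -0.68 ± 0.16. Pnpla3, a lipase-like protein of lipid droplets, rose from 2.64 ± 0.51 to 47.0 ± 26.2 CPM. Cholesterol synthesis genes split, with 3 of 22 higher, including Mvk, mevalonate kinase (1.01 ± 0.13), and 5 lower, including Sc5d and Msmo1 of the later steps. The lower count was 1 without responder 1, 2 or 5 or non-responder 4, 2 without non-responder 2 and 3 without non-responder 3 or the no-treatment library. The higher count was 1 without responder 1, 2 or 4, non-responder 2 or 3 or the no-treatment library. Of 30 respiratory chain genes 1 fell, and of 30 ribosomal protein genes 1 rose, with medians of -0.30 and 0.29. Respiratory chain calls were 5 without responder 4 or 6 and 3 without non-responder 1, ribosomal calls 5 without non-responder 1 and 2 without responder 6, and the other fits gave 1 or fewer.

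Of 20 p53 target genes 12 rose and 2 fell, with a median of 0.73. Phlda3, a p53-induced repressor of AKT, averaged 6.73 ± 2.94 against 0.527 ± 0.142 CPM, and Zmat3, a zinc finger protein of the same response, 18.999 ± 2.65 against 10.7 ± 0.54 CPM. Cdkn1a, the cell cycle inhibitor p21, stood at 1.77, 1.38, 3.51 and 0.486 CPM in responders 1, 2, 3 and 5, at 0.633 CPM in the no-treatment library and at 6.27, 14.8 and 32.7 CPM at the lowest, median and highest on the Afp-high side. The sides did not overlap, with a log2 fold change of 3.53 ± 0.59 (adjusted p = 0.00273). Of 22 ATF4 and ER stress genes 10 rose and 1 fell. Phgdh and Psat1, which make serine from a glycolytic intermediate, were among the higher. Phgdh averaged 30.04 ± 18.4 against 0.301 ± 0.173 CPM and Psat1 36.6 ± 22.8 against 1.47 ± 0.62 CPM. Mthfd2, of mitochondrial folate metabolism, rose by 2.11 ± 0.33. NRF2 antioxidant genes had 5 of 23 higher and 1 lower, with a median of 0.09, so the list as a whole did not shift. Among the higher were Nqo1 (1.08 ± 0.20) and the glutathione transferase genes Gstm2 and Gstm3 (1.80 ± 0.29 and 1.41 ± 0.23). Of 19 immediate early genes 7 rose, including Fosl1, Atf3 and Btg2, with a median of 0.78. Without non-responder 1, 6 were higher and 1 lower, and the median was 0.345.

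Type I interferon genes were higher on the Afp-high side in 10 of 31 tested, with a median of 1.67, and the highest values of the named members were in non-responders. Usp18 (chr6:121245906-121270916), the protease that removes ISG15 from proteins, stood at 2.30, 2.33, 4.91 and 2.10 CPM in responders 1, 2, 3 and 5 and at 1.27 CPM in the no-treatment library. It stood at 6.10 and 4.66 CPM in responders 4 and 6 and at 36.8, 51.3, 23.5 and 24.5 CPM in non-responders 1 to 4. Responder 6 lay under responder 3, whereas each non-responder lay far above every responder. Its log2 fold change was 3.24 ± 0.62 between sides (adjusted p = 0.00623), 0.86 ± 0.40 within responders (adjusted p = 0.518) and 2.67 ± 0.44 from Afp-high responders to non-responders (adjusted p = 0.183). These comparisons share libraries. Isg15 itself ran from 3.43 to 7.21 CPM on the Afp-low side, 10.2 and 7.01 CPM in responders 4 and 6, and 80.4, 62.3, 10.9 and 19.2 CPM in non-responders 1 to 4. The 10 calls became 19 without responder 4 and 17 without responder 6, but 2 without responder 1, responder 2 or the no-treatment library, 3 without responder 5, 5 without non-responder 2 and 6 without non-responder 1 or non-responder 4.

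Of 28 interferon-gamma and antigen presentation genes 1 was called, Nlrc5, an activator of MHC class I genes (1.11 ± 0.32), and the count was 14 without responder 3 and 0 to 4 without any other library. The median of that list was 0.84. The median of 11 MHC class II genes was -0.09, and 0.52 without responder 3. Cd274, which encodes PD-L1, averaged 8.004 ± 4.96 against 3.08 ± 2.08 CPM (log2 fold change 1.38 ± 0.53, adjusted p = 0.105).

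Lymphocyte genes were low in all libraries and few changed. T cell markers (Cd3e, Cd3d, Cd8a, Cd4) summed to 1.84 to 8.11 CPM on the Afp-high side and 2.47 to 5.68 CPM on the other. Of 27 T cell and cytotoxic genes 4 rose, against 8.63% called higher over all genes, with a median of 0.32. That count was 1 without responder 1, responder 5, non-responder 3 or the no-treatment library and 2 without responder 2, non-responder 2 or non-responder 4, with medians from 0.09 to 0.66 over all 11 such fits. Cd8a, the co-receptor of cytotoxic T cells, stood at 0.0806, 0.607, 0.569 and 0.324 CPM in responders 1, 2, 3 and 5, at 0.184 CPM in the no-treatment library and at 0.481, 1.09 and 2.46 CPM at the lowest, median and highest on the Afp-high side. The sides overlapped, the log2 fold change was 1.76 ± 0.49 (adjusted p = 0.0327), and 5 of 11 fits without a library ended the call. Nkg7, a cytotoxic granule protein, averaged 1.12 ± 0.29 against 0.407 ± 0.217 CPM and passed in all 11 such fits. Cd3e did not pass (0.604 ± 0.281 against 0.412 ± 0.201 CPM, adjusted p = 0.369). Natural killer genes had 1 of 10 called, Klrb1b, which ran from 0.161 to 27.2 CPM on the Afp-high side, and B cell genes had 1 of 11, the complement receptor Cr2 (3.21 ± 0.36). Both shares are near the 8.63% called higher over all genes. Klrb1b was tested in 6 of the 11 fits without a library, and without any 1 non-responder no natural killer gene was called, while 3 were without responder 4.

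Checkpoint and co-stimulation genes had 6 of 18 higher. Nt5e, the adenosine-producing enzyme CD73, averaged 45.3 ± 34.8 against 3.77 ± 0.91 CPM, with non-responder 2 highest at 115 CPM. Cd276, which encodes B7-H3, averaged 16.8 ± 2.47 against 8.74 ± 1.45 CPM, and Pvr, a ligand of TIGIT and CD226, 16.1 ± 4.13 against 8.34 ± 1.57 CPM. Pdcd1, the gene of PD-1, was below the filter, with 101 reads in all on the Afp-high side and 1 on the other. It was not tested, and these totals do not show how its reads were spread over the libraries. Of 17 chemokine genes 4 rose, among them Cxcl14 (2.66 ± 0.39) and Ccl8, and 1 fell, Cxcl12, with 254 ± 85.2 against 461 ± 24.99 CPM. The higher count was 2 without responder 1 or 5, non-responder 2, 3 or 4, or the no-treatment library.

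Markers of the other liver cells did not follow the sides in a body. Kupffer cell and macrophage markers summed to 66.0 to 255 CPM on the Afp-high side and 178 to 360 CPM on the other, with overlap. Clec4f, specific to Kupffer cells, averaged 78.8 ± 33.7 against 108 ± 20.9 CPM (adjusted p = 0.367). Of 21 genes of these cells Cd163, a haemoglobin scavenger receptor, and Slc40a1, the iron exporter, fell, and Gpnmb rose, each losing its call in 5 or more of 11 fits without a library. Endothelial genes had 2 of 25 higher, Cd34 and Lyve1, and 2 lower, among them Bmp2 (-1.07 ± 0.24). These counts are near the shares over all genes, 8.63% higher and 4.91% lower. The lower endothelial count was 7 without non-responder 1, 6 without responder 4 and 1 or 2 without any other library. Pecam1, the general endothelial marker, averaged 28.1 ± 5.66 against 22.6 ± 1.41 CPM (adjusted p = 0.129). Stellate and fibroblast markers summed to 56.7 to 240 CPM and 42.9 to 94.5 CPM.

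Of 31 stellate cell and matrix genes 7 rose and 3 fell, with 1 lower without the no-treatment library. Reln, reelin, which stellate cells make, averaged 236 ± 69.4 against 80.6 ± 12.5 CPM. Col1a1, the main fibrillar collagen, stood at 82.4 CPM in non-responder 1 and at 6.02 to 13.6 CPM in the other Afp-high libraries, against 1.61 to 8.89 CPM (adjusted p = 0.0945). Erythroid markers summed to 86.1 to 226 CPM against 65.4 to 151 CPM. Whether a change in cell mix took part in any of the lists above was not tested.

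**Figure D4:**
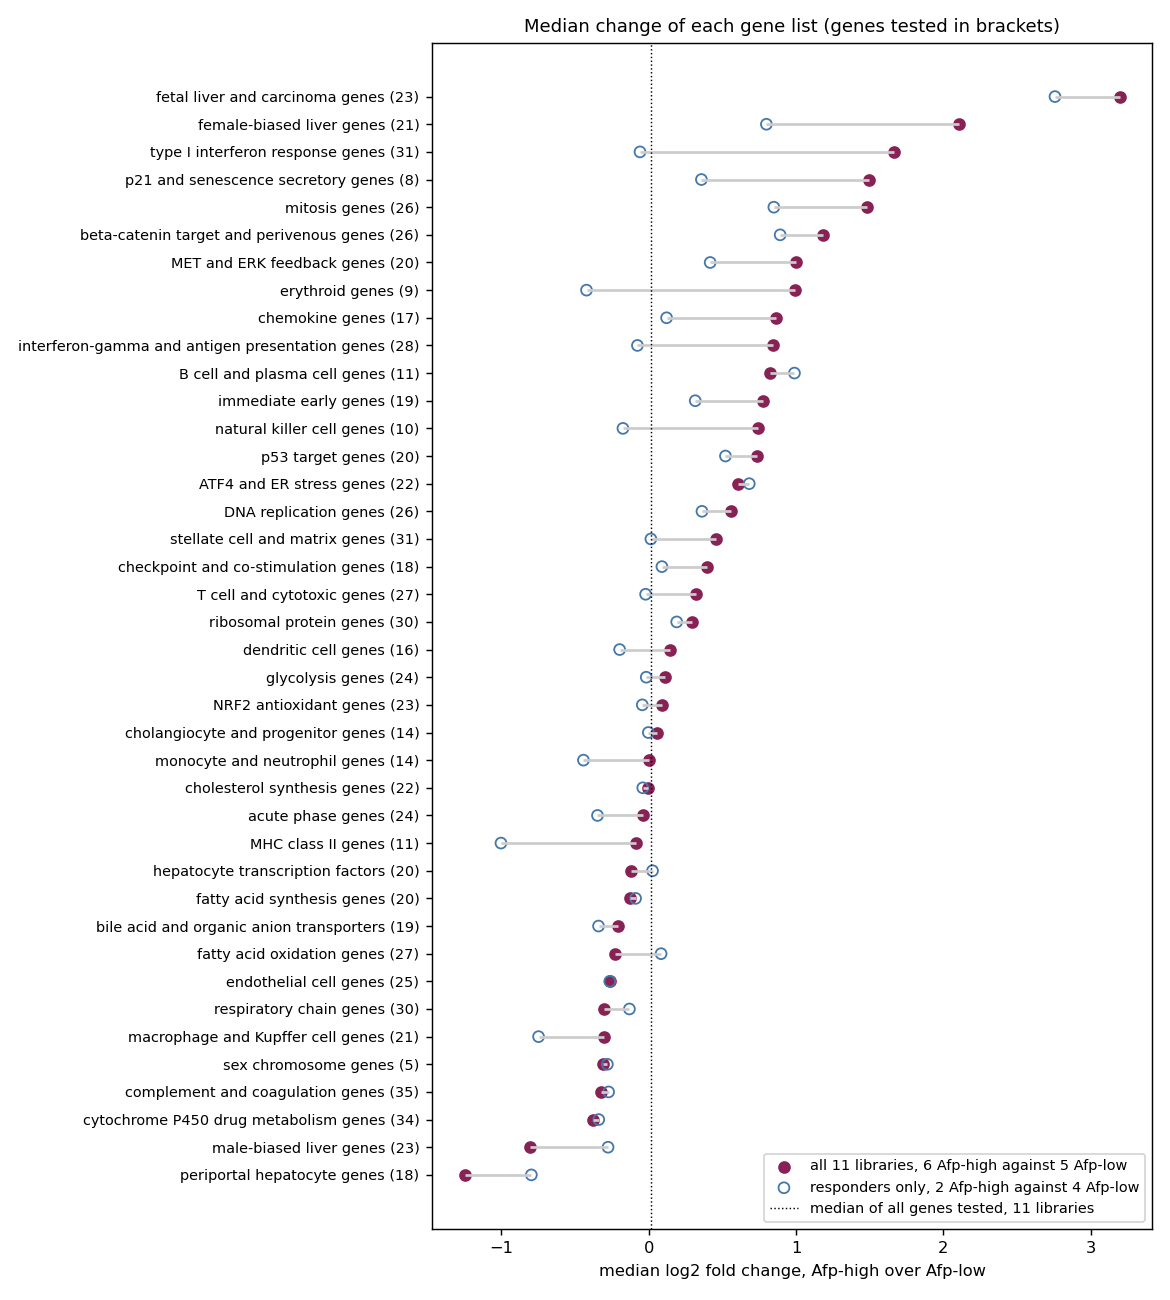
Median log2 fold change, Afp-high over Afp-low, of each of 40 gene lists (vertical axis, number of genes tested in brackets), over all 11 libraries (filled) and within responders (open). Fetal genes lie at 3.20 and 2.76, periportal genes at -1.25 and -0.80, and type I interferon genes at 1.67 and -0.06.

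Within the responders alone the sides, likewise set by Afp, itself a fetal gene, still differed for the fetal genes. The side coefficient of the model with the response label rests on responders 4 and 6 against responders 1, 2, 3 and 5. It called 186 genes higher (1.07%) and 7 lower (0.0403%) of all genes tested, with 1712 at an unadjusted p under 0.05. Of the fetal list 8 of 23 were called, with a median of 2.76, and the median over all genes was -0.0029. Akr1c18 had 32.01 and 25.8 CPM in responders 4 and 6 against 0.135 to 0.237 CPM in the other responders (log2 fold change 7.31 ± 0.19, adjusted p = 1.46e-08). Gpc3 came to 7.90 ± 0.59, Prom1 to 6.004 ± 0.36 and Kif5c to 7.08 ± 0.64. Others did not pass: H19, Stc1 and Cacna1b of the largest increases (adjusted p = 0.0617, 0.116 and 0.0587) and Igf2 (1.39 ± 1.11, adjusted p = 0.748). None of the 12 largest decreases passed either, with Ces1g lowest at an adjusted p of 0.244. Among the feedback genes Rnf43 came to 1.43 ± 0.13 (adjusted p = 0.000298) and Dusp6 to 2.40 ± 0.21 (adjusted p = 0.000259). Axin2 and Lgr5 did not pass (1.30 ± 0.37 and 0.84 ± 0.33, adjusted p = 0.196 and 0.415). Of the 18 periportal genes 1 passed, Ass1 (-1.31 ± 0.27, adjusted p = 0.046), and the median was -0.80.

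Medians within responders were 0.89 for β-catenin targets with 4 called, 0.42 for MET and ERK feedback genes with 3 called, and 0.85 for mitosis genes with 1 called. Female-biased genes had 6 called and a median of 0.80, and type I interferon genes had a median of -0.06. MHC class II genes had a median of -1.003. The 6 responders fitted on their own gave 535 higher and 301 lower. The model without non-responder 1, an alternative chosen after seeing the data, gave 315 and 74. The fit of the responders on their own leaves out 5 libraries and filters the genes anew.

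Non-responders and Afp-high responders did not differ for any gene at the threshold. This comparison of 4 with 2 libraries, the label coefficient of the same model, called 0 of 17383 genes by edgeR in either direction (0%), with 2028 at an unadjusted p under 0.05. No other tool was run on it. The median of type I interferon genes was 2.08, of interferon-gamma genes 1.18, of fetal genes 0.80 and of periportal genes -0.53, against 0.02 over all genes. Hamp had 472 and 449 CPM in responders 4 and 6 and 47.4, 27.7, 115 and 106 CPM in non-responders 1 to 4, a log2 fold change of -2.64 ± 0.43 (adjusted p = 0.183). Sult3a1 had 7.60 and 19.6 CPM against 105, 139, 81.2 and 93.3 CPM (2.93 ± 0.36, adjusted p = 0.0586).

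**Figure D5:**
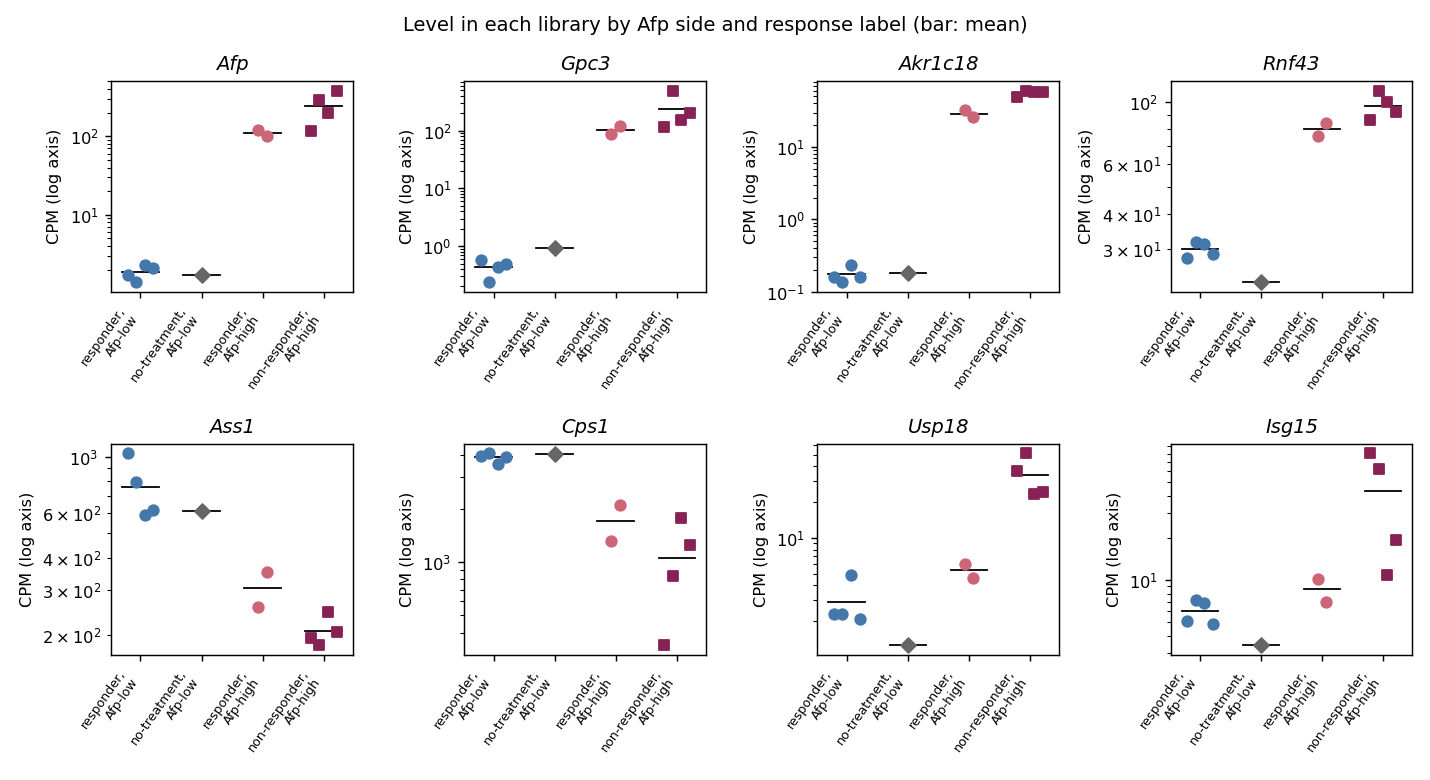
CPM on a log axis of Afp, Gpc3, Akr1c18, Rnf43, Ass1, Cps1, Usp18 and Isg15 in each library, by Afp side and response label, with a bar at each mean. Gpc3 and Akr1c18 in responders 4 and 6 (86.2 and 120, 32.01 and 25.8 CPM) lie near or below the non-responders and far above the Afp-low libraries, and Usp18 in the same responders (6.10 and 4.66 CPM) lies near the Afp-low libraries.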

How the data were processed

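Per the labels' protocols, liver RNA went into TruSeq libraries, and the submitters' processing notes name FastQC and mm10. What aligned and counted the reads, with which annotation and strand setting, was not given in the sources used here. Both deposited tables used hold raw counts of reads, per the file headers, by gene in the first and by transcript exon in the second. The authors' RPKM columns, per the file headers, were not used.

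CPM for the Afp rule was the count over the column sum. Genes were tested with edgeR 4.0.16 in R 4.3.3 (filterByExpr by side, TMM, robust quasi-likelihood F test, Benjamini-Hochberg over 17383 genes, threshold 0.05), with Afp kept in library sizes and not tested. A gene could pass the filter through the libraries of 1 side alone. Genes with almost no Afp-low reads, such as Akr1c18, Hao2, Mep1b and Cyp2b13, passed it through the Afp-high libraries. CPM values are TMM-scaled unless given for Afp or for marker sums. Standard errors were derived from F. Library and exon measures went through two-sided exact permutation tests over all assignments of 11 libraries to 6 and 5, adjusted over 6 measures. Exon measures used 1 transcript per gene and left out exons averaging under 10 counts. The 3′ index used 7526 genes. Promoters came from a RefSeq table on GRCm38.p6, matched by symbol, which held 1010 of the 1500 genes called higher.

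The sides, the exons and the 40 gene lists were chosen with earlier results of these data known. Genes were named by a rule: the 12 largest called increases and decreases with an average log2 CPM of 1 or more and sides that do not overlap, without Gm and Rik symbols; the 3 called members of each list with the smallest p; a set of tumour and immune genes; and the 10 genes most like Afp. Pdcd1 was named outside it, after its values were seen, and 1 gene that the rule took is not reported here. Alternatives were other scalings and filters, DESeq2 1.42.0, limma 3.58.1 voom with and without quality weights, glmTreat, covariates and each library left out. No pair of libraries with 1 label was alike within counting noise: the median chi-square was at least 4.68 times that of sampling alone.

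The edgeR step was tested on simulated data for this comparison. It called 10 of 57 genes changed 1.5-fold, 35 of 66 changed 2-fold, 65 of 71 changed 4-fold and 4 of 16963 unchanged genes. Intervals cover counting error only.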

Additional observations from a re-analysis of the deposited data

Results flagged for a closer look

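Of 76 groups of libraries examined, 7 held a highest or lowest library that stood far from the others of its side (Dixon's test at the 95% level), where chance gives about 1 in 20, or 3.8. On the scale of log2(CPM + 0.1), Gldn in responder 5 (-2.98) and Miox in responder 1 (-1.94) were the only Afp-low libraries with a read of these genes. Responder 1 was highest among the Afp-low libraries for Igfbp2 (9.29) and Raet1d (3.47). Non-responder 1 was lowest among the Afp-high libraries for Cyp8b1 (4.08) and highest in its 3′ index (1.126). Responder 4, the library with the fewest reads, was lowest in the number of genes with 10 or more counts (15570).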

How the results depend on the processing

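The count of genes called higher over all libraries was 638 at an adjusted p of 0.01, 479 with glmTreat at 1.5-fold, 186 with the response label as covariate (also among treated libraries alone) and 60 with the title number. Genes called lower came to 175, 41, 7 and 1 under those settings, to 1435 with DESeq2 and to 1974 with voom and quality weights. By list, the title number left 6 fetal genes and 1 β-catenin target called higher. It left 0 MET and ERK feedback genes and 0 mitosis genes called higher, and 0 periportal genes called lower. Without single libraries the counts ran from 938 to 1674 higher and from 363 to 1233 lower. They were lowest without responder 2 (938 and 363), responder 1 (972 and 384), the no-treatment library (999 and 428) and responder 5 (448 lower), and also moved without non-responder 2 (510 lower) and non-responder 4 (534 lower). Scaling by library size alone gave 1570 higher and 670 lower, 70.09% of calls higher against 63.75%. That share was 52.62% with voom and quality weights.

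Within responders the counts were 535 and 301 in the 6 responders alone and 315 and 74 without non-responder 1 in the model, and leaving out single responders gave 87 to 141 higher and 0 to 6 lower. The exon measures kept their direction and stayed past the threshold under every alternative run. The difference in genes with 10 or more counts ran from -46.7 to 472.8 over the single-library fits and changed sign without responder 1. The 3′ index passed the threshold without responder 4 (0.298), non-responder 2 (0.302) or non-responder 3 (0.301), and its differences over those fits ran from 0.064 to 0.302. The causes were not tested.

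Of 124 named genes past the threshold, none changed sign under the alternatives run. The response label ended 88 of their calls, the title number 101, glmTreat 55, and single libraries 1 to 24. No paired analysis was possible because replicate numbers follow accession order and pair nothing. Low depth limits genes of a few reads, such as those of lymphocytes, and 2 Afp-high responders limit every comparison within a label.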
